A study of Homo sapiens with 6 samples.

Results

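Myc occupancy was followed at 8 genes that set the level of polyamines in the cell, ODC1, AMD1, SRM, SMS, SAT1, OAZ1, OAZ2 and AZIN1. They were taken by name from the 19785 protein-coding genes of the annotation, with no filter on their Myc peaks. Earlier results of these data were known when the list was chosen. A Myc peak belonged to a gene when its summit, the base with the most reads, lay no farther than 5 kb from where a basic transcript of that gene starts, its transcription start site (TSS). The data were Myc ChIP-seq, chromatin immunoprecipitation followed by sequencing, of parental MDA-MB-231 cells, a human triple-negative breast cancer line, and of TKO cells, the same line after CRISPR/Cas9 knockout of TXNIP, the thioredoxin interacting protein. Each cell line had 2 Myc libraries, with a peak list for each, and 1 input chromatin library that served as control and had no peak list here. Both lines grew in the same medium, and the Myc antibody, clone D3N8F, was the same in all 4 libraries. TKO clones grew out of single cells, so a difference between the lines caused by loss of TXNIP and one caused by the isolation of a clone cannot be told apart. The comparison addresses whether Myc sits at the same genes, at the same places and to the same extent in both lines.

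Polyamines are small positively charged molecules that bind nucleic acids and are needed for cell growth. ODC1 makes putrescine from ornithine, AMD1 makes the aminopropyl donor, and SRM and SMS use that donor to build spermidine and then spermine. SAT1 acetylates spermidine and spermine for breakdown and export, the antizymes OAZ1 and OAZ2 bind ODC1 and send it to the proteasome, and AZIN1 takes up antizyme and so spares ODC1. ODC1 is a textbook Myc target with E-boxes, the hexamer CACGTG that Myc binds with its partner Max.

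The Myc lists held 3720 and 5719 peaks in parental replicates 1 and 2 and 27213 and 25887 peaks in TKO replicates 1 and 2. Depth, recovered from the peak values, was 26.4 and 22.2 M reads (M, 1000000 reads) in the parental libraries and 19.9 and 13.04 M reads in the TKO libraries, so the longer lists came from the shallower libraries. The fewest reads at a summit were 13 and 10 in the parental lists and 9 and 7 in the TKO lists, so a site without a peak is one below the calling threshold of its list, not one shown to be free of Myc. TXNIP itself had 0 peaks within 5 kb in each of the 4 lists. A peak list carries no value for the knocked-out part of the gene, so the cell line labels could not be checked with these files.

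More polyamine genes had a Myc peak in TKO cells than in parental cells, and the same held for genes in general. Peaks were found at 3 and 4 of the 8 genes in parental replicates 1 and 2 and at 6 and 7 of the 8 in TKO replicates 1 and 2. Among all protein-coding genes the share with a peak was 13.9% and 15.5% in the parental lists and 54.6% and 55.5% in the TKO lists. The polyamine shares, 37.5%, 50%, 75% and 87.5% in the same order, were above that background in each of the 4 libraries, with 8 genes behind each share. The background takes in all protein-coding genes and was not limited to those expressed in these cells. The group means were 3.5 ± 0.707 genes in parental cells and 6.5 ± 0.707 in TKO cells (SD, n = 2 libraries each), and the groups did not overlap. The difference of 3 genes had an exact two-sided permutation p = 0.333, the smallest that this test can give with 2 libraries against 2, so no comparison between the lines could pass a threshold of 0.05 by it.

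The 8 genes fell into 4 kinds by where a peak was called. ODC1, AMD1 and AZIN1 had a peak in all 4 libraries, which was true of 10.8% of all genes. SRM, SMS and OAZ1 had one in both TKO libraries and were without one in the parental libraries, as were 32.5% of all genes. SAT1 had a peak in parental replicate 2 and TKO replicate 2, a pattern whose share over all genes is not given here. OAZ2 had none in any library, as did 40.5% of all genes.

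**Figure D1:**
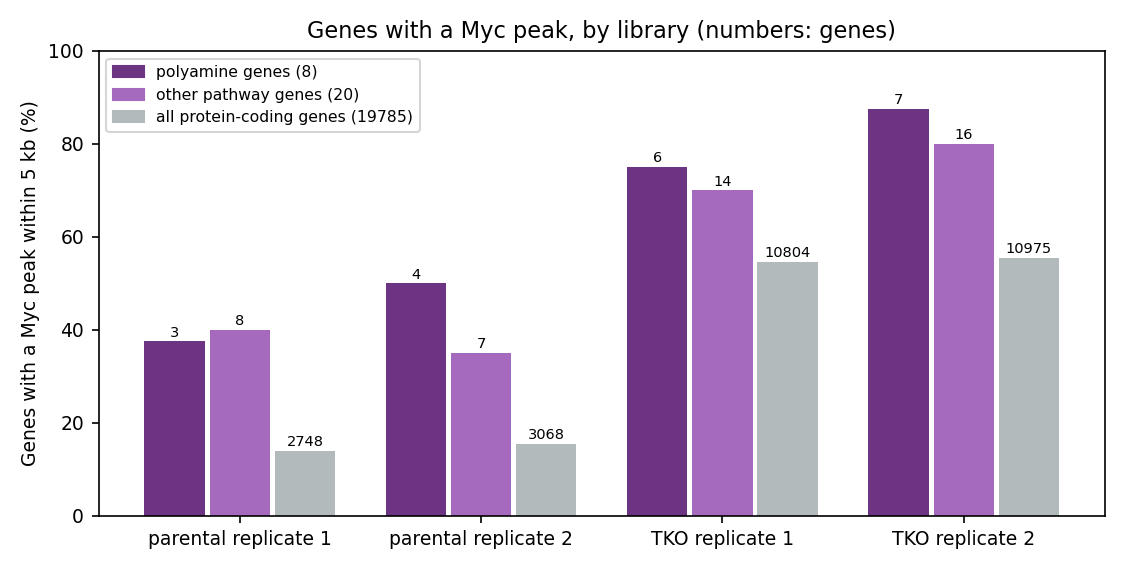
Share of genes with a Myc peak within 5 kb of a TSS (y axis, %) in each of the 4 Myc libraries (x axis) for the 8 polyamine genes, 20 other genes of the pathway and all 19785 protein-coding genes, with the number of genes above each bar. The bars of the polyamine genes reach 37.5% and 50% in the parental libraries and 75% and 87.5% in the TKO libraries, above the bar of all genes each time.

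The polyamine genes with a peak mostly had several in TKO cells and had 1 each in parental cells. Together they held 3 and 4 peaks in the parental lists and 15 and 18 peaks in the TKO lists. The means were 3.5 ± 0.707 and 16.5 ± 2.12 peaks (SD, n = 2 libraries each), a ratio of 4.71 (exact permutation p = 0.333). The whole lists had a ratio of 5.63, which is larger than that at these genes. Joining peaks that overlapped by at least 1 bp gave 17 sites. Of these, 3 had a peak in all 4 libraries, 8 had one in both TKO libraries and no parental library, 5 had one in a single library, each time a TKO library, and the SAT1 site made up the rest. The same split for sites near all genes is not given here, and the TKO lists were the longer ones throughout. In TKO replicate 1, 3 of the 6 genes with a peak had 3 or more, against 14.2% of all genes with a peak, and in TKO replicate 2, 3 of the 7 did, against 12.7%.

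**Figure D2:**
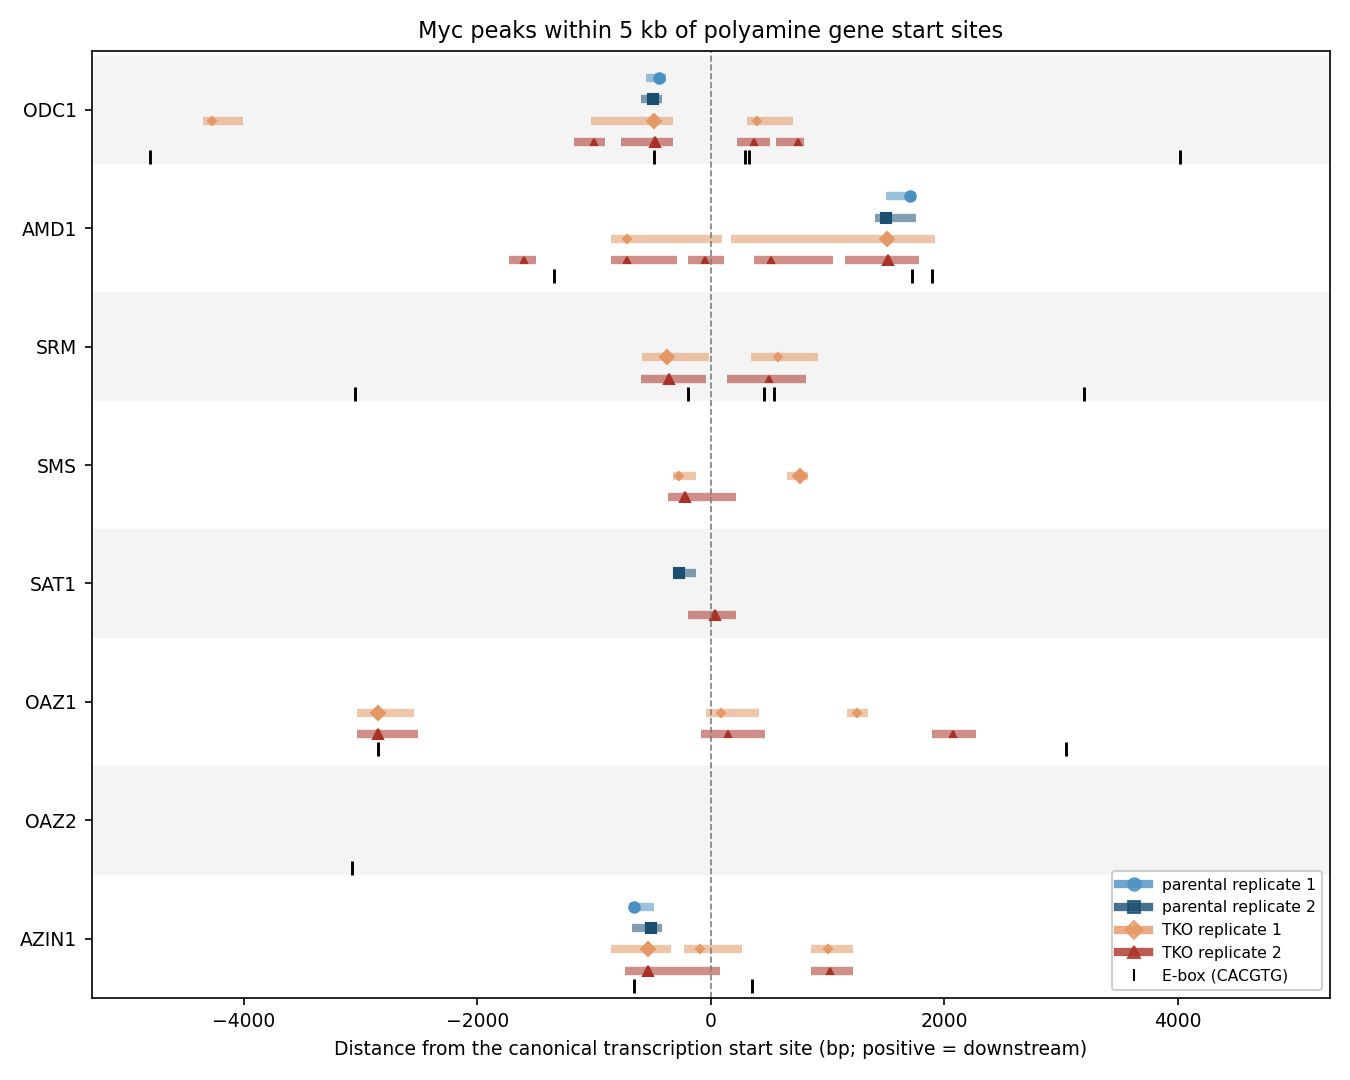
Myc peaks at the 8 polyamine genes by library, drawn as bars against the distance from the canonical TSS (x axis, bp, positive downstream on the gene's strand), with a marker at each summit, larger at the gene's peak of highest fold, and black ticks at CACGTG E-boxes. The parental peaks sit at the 3 sites shared by all libraries and at SAT1, and the TKO peaks add sites on either side of the TSS, as at SRM and OAZ1.

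Peak strength was read in 2 ways. The first was the authors' fold enrichment, the summit reads over the local background of the input, given as a percentile within the peak's own list, where 100 is the strongest peak. The second was the number of reads at the summit, recovered from the fold and the p-value and divided by depth in M reads, which can be set side by side between libraries. Where a gene had several peaks, the strongest was the one of highest fold. The reads were extended to 140 and 151 bp in the parental libraries and 182 and 201 bp in the TKO libraries, and a longer extension puts more reads over a summit, so ratios are also given after scaling by the genome background, the product of depth and extension.

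ODC1, the enzyme of the first step, lies on the minus strand of chromosome 2 with its canonical TSS at position 10588453 (hg19). Its strongest peak stood upstream at the same place in the 4 libraries. The summits were 445 and 493 bp upstream of the TSS in parental replicates 1 and 2 and 490 and 475 bp upstream in TKO replicates 1 and 2, in no protein-coding gene and 13 to 35 bp from the TSS of the divergent long noncoding RNA ODC1-DT. One E-box, chr2:10588941-10588946, lay under all 4 peaks, and its centre was 45.5, 2.5, 0.5 and 15.5 bp from the 4 summits in that order. The bases within 50 bp of the summit of TKO replicate 1 are shown here because they hold the E-box that the 4 libraries share, followed by a stretch downstream of the TSS whose pair of E-boxes was reached by TKO peaks, which lies in the first intron of the canonical transcript and partly in the untranslated region of another. Both are GRCh37, which has the hg19 coordinates, plus strand, 5′ to 3′, with E-boxes in capitals.
ODC1 upstream summit chr2:10588893-10588993: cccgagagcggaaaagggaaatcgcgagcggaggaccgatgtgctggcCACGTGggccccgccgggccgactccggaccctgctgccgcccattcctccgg
ODC1 downstream E-box pair chr2:10588118-10588182: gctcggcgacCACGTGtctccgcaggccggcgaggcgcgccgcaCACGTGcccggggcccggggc

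The upstream ODC1 peak was wider in both TKO libraries than in both parental libraries, as peaks were in general. Its width was 175 and 181 bp in the parental libraries and 709 and 451 bp in the TKO libraries, beside medians over the strongest peaks of all genes of 239 and 233 bp and of 462 and 467 bp. The summit held 26 and 25 reads in the parental libraries and 52 and 48 in the TKO libraries. These counts have exact Poisson 95% intervals of 17.0 to 38.1, 16.2 to 36.9, 38.8 to 68.2 and 35.4 to 63.6 reads, which cover counting error only. Per M reads this came to 0.984 and 1.13 against 2.61 and 3.68, and every TKO value was above both parental values. The means were 1.06 ± 0.101 and 3.14 ± 0.760 (SD, n = 2 libraries each), a ratio of 2.98 (exact permutation p = 0.333), or 2.25 after scaling by the genome background.

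Within its own list the ODC1 peak ranked high in 3 libraries and in the middle of the fourth. Its percentile by fold was 54.7 in parental replicate 1 and 92.4 in parental replicate 2, ranks 1679 and 436. It was 91.2 and 96.2 in TKO replicates 1 and 2, ranks 2379 and 993. The parental libraries thus had nearly equal summit reads and unequal percentiles, with a fold of 5.69 over a local background of 3 in replicate 1 and of 8.54 over 2.04 in replicate 2. The downstream E-box pair was covered differently, since chr2:10588128-10588133 lay in a peak of both TKO libraries, chr2:10588162-10588167 in a peak of TKO replicate 2 alone, and neither in a parental peak. The downstream peaks held 17 reads in TKO replicate 1 and 13 and 15 reads in TKO replicate 2. TKO replicate 2 had another peak of 14 reads 1001 bp upstream, which overlapped the wide upstream peak of TKO replicate 1. A further peak of 17 reads lay 4270 bp upstream in TKO replicate 1, the farthest inside the 5 kb window, and the closest summit outside the window was 12657 bp away in the same library.

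The genes most like ODC1 in the percentile of their strongest peak, over 4 libraries and 2142 other genes with a peak in each, included BCKDHA and EXOSC5. BCKDHA and EXOSC5 share 1 peak on chromosome 19, with percentiles of 52.0, 94.6, 93.3 and 95.96 and a mean absolute difference from ODC1 of 1.78 points.

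AMD1, adenosylmethionine decarboxylase, lies on the plus strand of chromosome 6 with its canonical TSS at position 111195988. Its strongest peak was in the first intron in all 4 libraries, with summits 1707 and 1501 bp downstream of the canonical TSS in the parental libraries and 1507 and 1516 bp downstream in the TKO libraries. Measured from the nearest of its 3 annotated basic start sites, these summits were 711 to 917 bp downstream. An E-box at chr6:111197706-111197711 was in a peak of all 4 libraries, 13.5 bp from the summit of parental replicate 1 and 219.5, 213.5 and 204.5 bp from the other 3 summits. At the other 3 summits a related hexamer lay within 50 bp on either strand, out of a set made up of CACGCG with the similar CATGTG and also CATGCG as well as CACGAG, as it did at 31.3%, 23.0% and 20.9% of the strongest peaks of all genes in those libraries. The sequence from the summit of TKO replicate 1 to that E-box is shown because it spans the distance between them (GRCh37, plus strand, 5′ to 3′, E-box in capitals).
AMD1 intron chr6:111197445-111197744: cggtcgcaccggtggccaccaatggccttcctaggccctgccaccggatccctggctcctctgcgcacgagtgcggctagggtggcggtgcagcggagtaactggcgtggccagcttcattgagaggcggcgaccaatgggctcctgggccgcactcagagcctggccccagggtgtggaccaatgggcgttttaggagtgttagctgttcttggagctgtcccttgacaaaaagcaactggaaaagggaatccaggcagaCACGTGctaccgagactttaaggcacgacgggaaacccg

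The AMD1 peak had more reads and was wider in both TKO libraries than in both parental libraries. Its width was 258 and 355 bp in the parental libraries and 1748 and 631 bp in the TKO libraries. The summit held 28 and 25 reads in the parental libraries and 63 and 59 in the TKO libraries, or 1.06 and 1.13 against 3.16 and 4.53 reads per M. Both TKO values were above both parental values, with means of 1.09 ± 0.0476 and 3.84 ± 0.967 (SD, n = 2 libraries each) and a ratio of 3.51 (exact permutation p = 0.333), or 2.65 by the genome background. The percentile by fold was 35.2 and 25.8 in the parental lists and 88.8 and 95.4 in the TKO lists, which are longer, and the medians over all genes with a peak were also higher there, 71.7 and 71.1 against 56.7 and 56.8. TKO replicate 1 had 1 more peak, at 718 bp upstream with 43 reads, and TKO replicate 2 had 4 more, at 1603, 715 and 47 bp upstream and 518 bp downstream with 18, 23, 25 and 20 reads.

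SRM, spermidine synthase, lies on the minus strand of chromosome 1 with its only basic TSS at position 11120075. It had no parental peak within 5 kb, and the nearest parental summits were 213493 and 213483 bp away. In TKO cells it had a pair of peaks, one on each side of the TSS. The upstream summit was 374 and 358 bp from the TSS in TKO replicates 1 and 2, and the downstream summit, in the first intron of the canonical transcript, 576 and 495 bp from it. The upstream peak held 31 and 26 reads and the downstream peak 39 and 26. By fold the upstream peak stood at percentiles 94.3 and 95.2 and the downstream peak at 93.6 and 95.2, the pair being tied in TKO replicate 2, so both peaks were among the stronger ones of lists several times as long as the parental lists.

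The 5 kb to either side of the SRM TSS held 5 E-boxes in all, and 2.82% of such windows over all genes held 5 or more. Of these 5, 3 lay in a peak of both TKO libraries, at 544 and 454 bp downstream and 196 bp upstream of the TSS. The downstream E-boxes were 32.5 and 122.5 bp from the summit of TKO replicate 1 and 48.5 and 41.5 bp from that of TKO replicate 2, and the upstream one was 177.5 and 161.5 bp from the upstream summits. The bases shown around the downstream E-boxes also lie in the untranslated region of another transcript. These sequences are shown because SRM had the most E-boxes under peaks that were called in TKO cells alone (GRCh37, plus strand, 5′ to 3′, E-boxes in capitals).
SRM upstream chr1:11120229-11120499: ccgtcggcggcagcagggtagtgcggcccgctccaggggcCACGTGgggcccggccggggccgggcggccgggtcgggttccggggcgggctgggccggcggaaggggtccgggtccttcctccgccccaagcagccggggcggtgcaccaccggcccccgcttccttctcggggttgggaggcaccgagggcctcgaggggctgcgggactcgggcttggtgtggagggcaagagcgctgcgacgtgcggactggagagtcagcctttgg
SRM intron, first chr1:11119517-11119546: gagcgatggtgaCACGTGgcgaggaacggc
SRM intron, second chr1:11119607-11119636: cctgagggctgaCACGTGgagcggggcgca

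SMS, spermine synthase, lies on the plus strand of chromosome X with its canonical TSS at position 21958827. The nearest parental summits were 1726679 and 1726681 bp away, so neither parental list had a peak near it. TKO replicate 1 had a peak 271 bp upstream with 21 reads and one 766 bp downstream with 16 reads, and TKO replicate 2 had a single peak 225 bp upstream with 29 reads. The upstream site was the one both libraries shared, with 1.05 and 2.22 reads per M and percentiles of 26.2 and 82.1. Its rank thus differed widely between the TKO libraries. By fold the downstream peak was the stronger one in TKO replicate 1, with 0.802 reads per M at percentile 54.7. The medians over genes and the figures of strongest peaks use that peak for TKO replicate 1. No CACGTG lay within 5 kb of the SMS TSS, and the bases within 50 bp of the upstream summit of TKO replicate 2 are shown as a peak without an E-box (GRCh37, plus strand, 5′ to 3′).
SMS upstream summit chrX:21958552-21958652: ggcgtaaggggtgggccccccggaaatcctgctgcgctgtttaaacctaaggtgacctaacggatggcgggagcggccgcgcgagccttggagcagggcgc

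SAT1, the acetyltransferase of polyamine breakdown, lies on the plus strand of chromosome X with its TSS at position 23801290. It was the one polyamine gene whose peaks did not follow the cell line. Parental replicate 2 had a peak 276 bp upstream of the TSS, 197 bp wide with 18 reads, and TKO replicate 2 had one 40 bp downstream in the 5′ untranslated region, 413 bp wide with 20 reads. Parental replicate 1 and TKO replicate 1 had none, and their nearest summits were 115778 and 40243 bp away. Both peaks were modest for their lists, at percentiles of 13.3 and 52.5. Per M reads they came to 0.811 and 1.53. Other start sites were close, since the parental summit was 59 bp from the TSS of a long noncoding RNA and another annotated gene starts 105 bp from SAT1, so position alone does not assign these peaks to 1 gene. No CACGTG lay within 5 kb of this TSS, and the bases within 50 bp of the parental summit are shown as the only parental peak of these genes without an E-box (GRCh37, plus strand, 5′ to 3′).
SAT1 parental summit chrX:23800964-23801064: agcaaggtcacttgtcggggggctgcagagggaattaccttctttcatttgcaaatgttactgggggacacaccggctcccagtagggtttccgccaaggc

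OAZ1, an antizyme, lies on the plus strand of chromosome 19 with its canonical TSS at position 2269519. The nearest parental summits were 32735 and 32751 bp away. Each TKO library had 3 peaks, and the strongest was not at the TSS but 2847 and 2850 bp upstream of it, 487 and 519 bp wide. That peak held 57 and 28 reads, or 2.86 and 2.15 reads per M, at percentiles of 93.3 and 80.3. An E-box at chr19:2266667-2266672 was 2.5 and 0.5 bp from the 2 summits, the closest match between a summit and an E-box among the TKO-only sites. The TSS itself had a weaker peak in both TKO libraries, 88 and 147 bp downstream in the coding sequence, with 23 and 19 reads at percentiles of 77.6 and 64.3. The upstream summit is shown because it is centred on its E-box (GRCh37, plus strand, 5′ to 3′, E-box in capitals).
OAZ1 upstream summit chr19:2266622-2266722: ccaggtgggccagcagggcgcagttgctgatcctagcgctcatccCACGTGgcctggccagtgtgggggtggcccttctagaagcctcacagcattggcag

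OAZ2, the other antizyme of this gene list, had no peak in any of the 4 libraries. Its nearest summits were 315436 and 540313 bp away in the parental lists and 122707 and 106871 bp away in the TKO lists, and the single E-box of its window, 3071 bp upstream of the TSS, was in no peak. The antizymes of this gene list therefore differed in these data, OAZ1 having 3 peaks in each TKO list and OAZ2 having 0. Antizyme genes outside the list are not compared here.

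AZIN1, the antizyme inhibitor, lies on the minus strand of chromosome 8 and had its strongest peak upstream in all 4 libraries. The summits were 659 and 510 bp upstream of the canonical TSS in the parental libraries and 541 and 535 bp upstream in the TKO libraries. An E-box 657 bp upstream lay in a peak of each library, 1.5 bp from the summit of parental replicate 1 and 147.5, 116.5 and 122.5 bp from the other 3 summits. As at AMD1, the E-box was at the summit in parental replicate 1 only. The summit held 27 and 19 reads in the parental libraries and 72 and 42 in the TKO libraries, or 1.02 and 0.856 against 3.61 and 3.22 reads per M. Both TKO values were above both parental values, with means of 0.939 ± 0.117 and 3.42 ± 0.275 (SD, n = 2 libraries each) and a ratio of 3.64 (exact permutation p = 0.333).

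The AZIN1 peak was 211 and 256 bp wide in the parental libraries and 513 and 810 bp wide in the TKO libraries, and its percentile by fold was 52.4 and 34.8 in the first pair and 96.6 and 90.9 in the second. Both TKO libraries had a second site 1000 and 1022 bp downstream with 37 and 32 reads, which is also inside the intron of another annotated gene. TKO replicate 1 had one more peak, 96 bp upstream with 33 reads. The TSS of the long noncoding RNA MAILR was 359 to 508 bp from the 4 strongest summits, so the upstream peak has more than 1 start site near it.

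Across the 3 genes with a peak in all 4 libraries, both TKO libraries had more summit reads per M than both parental libraries at 3 of 3 genes. That was also true of 98.1% of the 2143 genes with a peak in all 4 libraries, so the direction is the one nearly all such genes had. The median ratio over the 3 genes was 3.51, beside a median of 2.54 and a span of 1.93 to 3.23 for the central 80% of values over the 2143 genes. ODC1 at 2.98 was inside that range, at percentile 80.8 of the ratios, and AMD1 at 3.51 and AZIN1 at 3.64 were above it, at percentiles 94.96 and 96.4. By the genome background the ratios were 2.25 for ODC1, 2.65 for AMD1 and 2.77 for AZIN1, with a median of 1.92 over all 2143 genes. Scaling thus lowered every ratio and left each above the median.

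**Figure D3:**
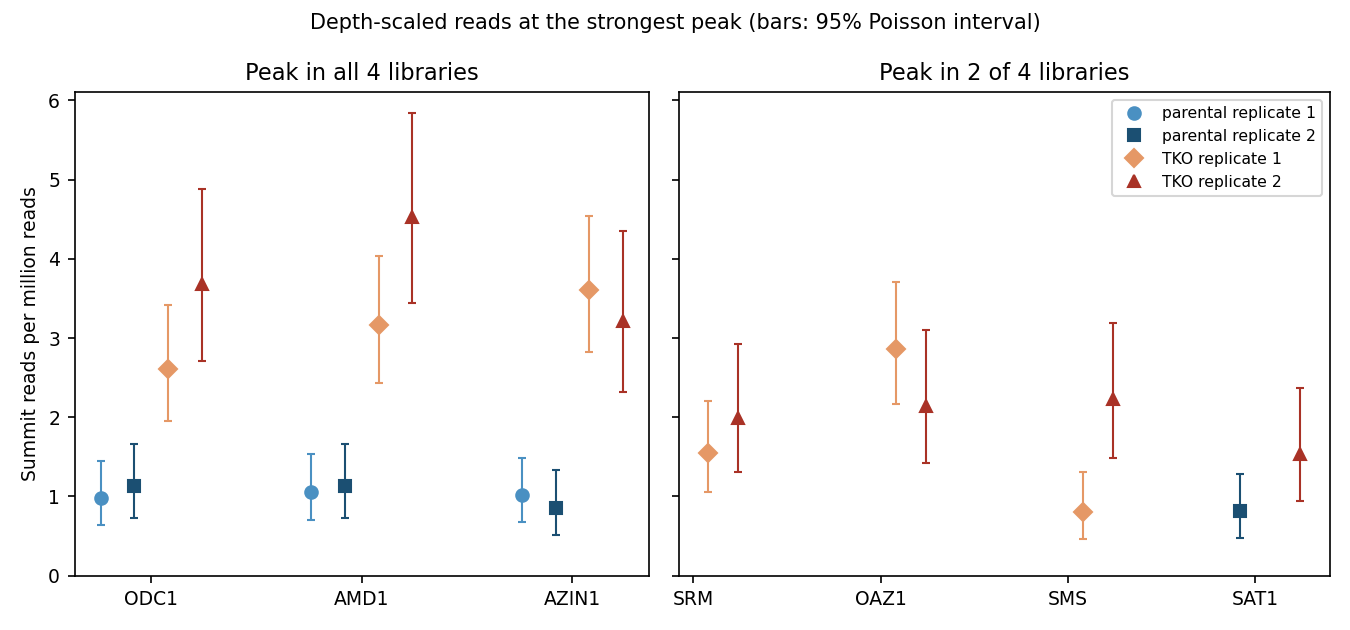
Summit reads per M reads (y axis) at the strongest Myc peak of each polyamine gene, with points for the 4 libraries and bars for the exact Poisson 95% interval of the reads. On the left, for the 3 genes with a peak in every library, the parental points lie between 0.856 and 1.13 and the TKO points between 2.61 and 4.53, and on the right are the 4 genes with a peak in 2 libraries. The SMS points come from different sites, downstream in TKO replicate 1 and upstream in TKO replicate 2.

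The rank of the peaks within their lists differed between the lines as well. The median percentile over the polyamine genes with a peak was 52.4 and 30.3 in parental replicates 1 and 2 and 92.3 and 90.9 in TKO replicates 1 and 2, and the groups did not overlap. Over all genes with a peak the medians were 56.7 and 56.8 in the parental lists and 71.7 and 71.1 in the TKO lists. The median of the polyamine genes was thus below that of all genes in parental cells and above it in TKO cells, but single genes differed, with ODC1 above it in parental replicate 2, SMS below it in TKO replicate 1 and SAT1 below it in TKO replicate 2. The difference between the group means was 50.2 points (exact permutation p = 0.333). It compares different genes, 3 and 4 in the parental lists with 6 and 7 in the TKO lists, and lists of different length. With each list limited to its 3720 peaks of highest fold, the medians became 52.4, 88.3, 51.2 and 67.1 over 3, 1, 5 and 4 genes, and the difference turned to -11.2 points.

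In those lists of equal length ODC1 was present in all 4, AMD1 and AZIN1 in parental replicate 1 and both TKO libraries, SRM in both TKO libraries and OAZ1 in TKO replicate 1. SMS, SAT1 and OAZ2 were in none. The peaks numbered 3 and 1 in the parental lists and 6 and 5 in the TKO lists, a ratio of 2.75 in place of 4.71. The share of all protein-coding genes with a peak in these shortened lists is not given here. Whether the counts differ from those of genes in general was not tested.

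**Figure D4:**
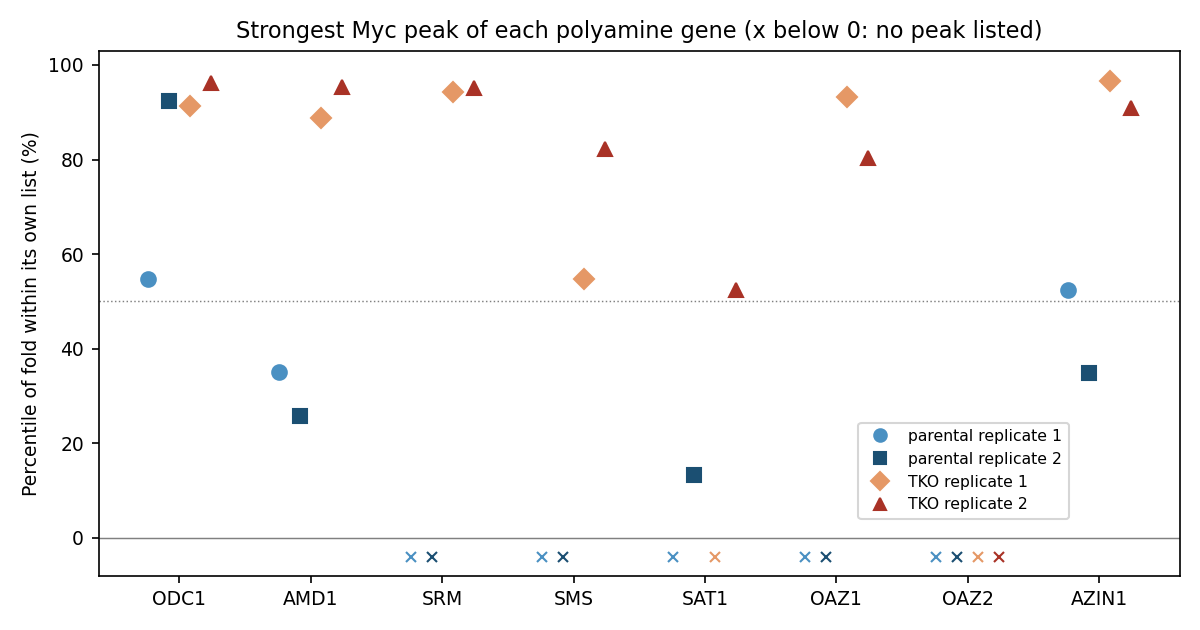
Percentile by fold of the strongest Myc peak within its own list (y axis, %) for each polyamine gene (x axis) in the 4 libraries, with crosses below 0 where no peak was listed. The TKO points of ODC1, AMD1, SRM, OAZ1 and AZIN1 lie above 80, and the parental points lie below 55 except for ODC1 in parental replicate 2, at 92.4. The SMS points come from different sites in the TKO libraries.

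An E-box lay near the strongest summit at ODC1 in all 4 libraries and at OAZ1 in both TKO libraries, and at AMD1 and AZIN1 in 1 parental library. The strongest peak had a CACGTG within 50 bp of its summit at 3 of 3 polyamine genes in parental replicate 1, where 21.9% of all genes with a peak had one. The count was 1 of 4 in parental replicate 2, against 18.8%, 2 of 6 in TKO replicate 1, against 10.0%, and 2 of 7 in TKO replicate 2, against 8.46%. The genes were ODC1, AMD1 and AZIN1 in parental replicate 1, ODC1 alone in parental replicate 2, and ODC1 and OAZ1 in both TKO libraries. In TKO replicate 2 the SRM peaks tied in fold and the one nearer the TSS, which has no E-box within 50 bp, was taken, so the count there is 3 of 7 if the other is taken. With a TSS window of 1 kb, which leaves out the upstream OAZ1 peak, the TKO counts were 1 and 1. The group means were 2 ± 1.41 and 2 ± 0 genes (SD, n = 2 libraries each), a difference of 0 (exact permutation p = 1). With an E-box anywhere in the strongest peak it was 3 of 3 and 3 of 4 genes in the parental libraries. In the TKO libraries it was 5 of 6 and 5 of 7, a difference of 2 genes, and more genes had a peak there. The TKO peaks were also the wider ones. The shares over all genes with a peak were 33.3% and 30.3% in the parental libraries and 23.8% and 22.2% in the TKO libraries. Windows of the same length 1 kb to either side of the summits of all genes held an E-box in 1.33% to 1.43% of cases.

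Counted in the genome and not under peaks, the 8 windows of 5 kb to either side of the canonical TSS held 18 E-boxes. ODC1 and SRM had 5 each, AMD1 had 3, OAZ1 and AZIN1 had 2 each, OAZ2 had 1, and SMS and SAT1 had 0. Over all genes the median was 1 and 68.3% of windows held at least 1. Of the 18, 10 were in a peak of at least 1 library and 3 in a peak of all 4, beside 15.2% and 2.98% of the 23130 E-boxes in the windows of all genes. The 3 were the E-boxes upstream of ODC1 and AZIN1 and in the intron of AMD1 described above. A match to the hexamer says only that these letters are in the window.

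Other genes of the pathway also had a peak more often in the TKO lists. Of 20 such genes 8 and 7 had a peak in parental replicates 1 and 2 and 14 and 16 in TKO replicates 1 and 2, shares of 40%, 35%, 70% and 80% beside 13.9%, 15.5%, 54.6% and 55.5% of all genes. A peak in all 4 libraries was found at 6 of the 20, the methionine cycle genes MAT2A and AHCY, the hypusine pathway genes DHPS and EIF5A, and the transporter genes SLC18B1 and SLC3A2, beside 10.8% of all genes. Another 5 had a peak in both TKO libraries and no parental one, beside 32.5% of all genes, 3 in both TKO libraries and 1 parental library, and 2 in TKO replicate 2 alone. For the last 2 patterns the share over all genes is not given here. AZIN2, SATL1, ARG1 and MTAP, 4 of the 20, had none in any library, beside 40.5% of all genes.

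The percentiles of these 6 genes are given for each list and were not recomputed in lists of equal length, and the medians over all genes with a peak, 56.7 and 56.8 in the parental lists and 71.7 and 71.1 in the TKO lists, belong beside them. MAT2A, which makes S-adenosylmethionine, the substrate of AMD1, stood at percentiles of 81.9 and 4.76 in the parental lists and 97.4 and 96.8 in the TKO lists. AHCY, which clears S-adenosylhomocysteine, stood at 75.1 and 52.3 and then at 98.4 and 98.1. EIF5A, the protein that carries hypusine, made from spermidine, stood at 82.3 and 59.7 and then at 98.7 and 97.2. DHPS, the enzyme of the first step of this modification, stood at 54.7 and 62.0 and then at 80.5 and 81.4. SLC18B1, a vesicular polyamine transporter that the study displayed, stood at 9.68 and 89.0 and then at 96.6 and 97.5, its strongest peak in parental replicate 2 being at another site than in the other 3 libraries. SLC3A2, the heavy chain of amino acid transporters, had the most summit reads per M of these genes. It had 3.29 and 3.16 in the parental libraries and 7.97 and 8.74 in the TKO libraries. The strongest peaks of SLC18B1 and SLC3A2 lay within 5 kb of another basic start site of the gene, far upstream of its canonical TSS. In parental replicates 1 and 2 and TKO replicates 1 and 2 the offsets at SLC18B1 were -15622, -14677, -15669 and -15711 bp. At SLC3A2 they were -24984, -24771, -24900 and -24905 bp in the same order. Whether other genes start near these peaks is not given here.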

How the data were processed

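Single-end 50-cycle HiSeq reads were aligned by the authors to hg19 with Novoalign 3.08.02, and peaks were called with MACS2 2.1.1.20160309 in each Myc library on its own with input as control (versions from the submitters' processing notes). Each deposited list gives a fold enrichment by the authors, the ratio of reads at the summit to the background around it, their −log10 p-value and −log10 q-value, a summit offset in bases, and a deposited score derived from the q-value. The lowest −log10 q-value was 2.03 to 2.07 in the 4 lists. Handling of duplicate reads is not given in the sources used here. The lists were used as deposited, and peaks of replicates were not pooled.

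Summit reads, local background and depth were solved from fold and p-value. Whole reads gave back the −log10 p-value, to within 0.002, at 100% of peaks of every list. The narrowest peak of a list stood for the extension length and the genome size was assumed to be 2700000000 bases, so depths carry that assumption while ratios between libraries do not depend on the genome size. The local background is in the same scaled read units as MACS2 used. Counting intervals cover counting error only, since PCR copies are not independent molecules.

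Start sites were the 55869 basic start sites of 19785 protein-coding genes in GENCODE v44 lifted to GRCh37, which has the hg19 coordinates, and 0 peaks ended beyond their chromosome. Offsets are to the canonical TSS unless stated. The E-box CACGTG reads the same on both strands. Promoter sequences of another build were not used.

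Values per library were compared between 2 parental and 2 TKO libraries by exact two-sided permutation tests over 6 arrangements. Lists of genes were described beside all protein-coding genes, with no set test. All 8 polyamine genes are named, and of the 20 other pathway genes those with a peak in all 4 libraries or in none, SLC18B1 included because the study displayed it. The 3 genes most like ODC1 had the smallest mean absolute difference in percentile, and 1 of them is not reported here. The members, lists and rules were chosen with earlier results of these data known. Alternatives were each library left out, a replicate block, a 1 kb window, start sites of all transcripts, a −log10 q-value of at least 5, lists of 3720 peaks, E-boxes within 100 bp, in the whole peak or in any peak, ranking by −log10 p-value, and scaling by genome background.

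Sequences were read with samtools 1.23.1 and pysam 0.24.0, values were computed in Python 3.11.15 with pandas 2.3.3, scipy 1.17.1 and numpy 2.4.6, and plots were drawn with matplotlib 3.10.9. The steps were tested on simulated data, where summit reads were recovered for 100% of 1891 peaks with a scaled library and of 1919 without scaling, and the TSS assignment of 200 peaks and the E-box calls of 500 sequences were all recovered.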

Additional observations from a re-analysis of the deposited data

How the results depend on the processing

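Among the alternative values, 49 kept their direction or stayed within the spread between replicates, 2 moved and 1 reversed. With lists limited to 3720 peaks each, the ratio of peaks near the polyamine genes was 2.75 in place of 4.71, and the difference in median percentile was -11.2 points in place of 50.2. That setting removes mainly TKO peaks by construction, and no share of all genes is given for it. With an E-box anywhere in the strongest peak, TKO cells had 2 more genes with one, in place of 0, and also more genes with a peak. Leaving out each library in turn gave 2.5 to 3.5 more genes with a peak in TKO cells, a peak ratio of 4.13 to 5.5, an E-box difference of -1 to 1 genes, a percentile difference of 39.2 to 61.3 points, an ODC1 ratio of 2.47 to 3.49 and a median ratio of 2.89 to 3.49. At a −log10 q-value of at least 5 the peak ratio was 6.6 and AZIN1 and SAT1 lost their peak in parental replicate 2. The ratio of the whole lists at that cut is not given here.

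The libraries share replicate numbers, but their deviations from the group means correlated at 0.0695 over 2143 genes, so the numbers were not taken as pairs. With a replicate block the values were 3 genes, a peak ratio of 4.75, an E-box difference of 0, 50.2 points, an ODC1 ratio of 2.96 and a median ratio of 3.37, and the smallest p that design allows is 0.5. With 2 libraries against 2 the exact permutation test cannot go below 0.333 under any of these settings. Sites just below a list's threshold are not seen, and the TKO lists reach down to fewer summit reads than the parental lists.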
